A study of Drosophila melanogaster with 6 samples.

Results

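Splice junctions with short introns were taken from the deposited list of junctions whose usage differed between *ecd1* and *w1118* larvae. A junction is the pair of genomic positions that a spliced read joins. Its intron length was the number of bases between the flanking exon bases, and junctions with an intron of at most 200 bp were kept. This gave 343 of 1389 changed junctions, in 232 of the 653 genes with any changed junction. The list holds the difference in percent spliced in (deltaPSI, *ecd1* minus *w1118*), which is the share of a junction among the reads of its cluster of overlapping introns. The authors made it with LeafCutter and kept junctions whose deltaPSI exceeded 0.1 in size, in clusters with an adjusted p under 0.05. The 343 junctions were therefore chosen by intron length, deltaPSI and adjusted p. Their deltaPSI are given as a description with no test, and values per sample and read depths per junction were not analysed here.

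The RNA came from whole larvae at the third instar. Larvae of each genotype spent 10 days at 18°C, a permissive temperature for the allele, and 2 days at 29°C, a restrictive one, and each genotype had 3 biological replicates of 8 larvae. *ecd1* is a temperature-sensitive allele of *ecdysoneless* with a proline-to-serine substitution, and *w1118* is the white-eyed control strain. The substitution leaves the transcript in place, so the counts of *ecd* cannot check the labels. The sex of the larvae was not given, and whether the strains of these larvae shared a background was not stated.

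The spliceosome removes introns by recognising a 5′ splice site and a 3′ splice site and joining the exons in 2 chemical steps. In *Drosophila* most introns are short, and both of their ends are thought to be recognised together across the intron. Ecd binds Prp8, the large protein at the centre of the U5 small nuclear ribonucleoprotein, which contacts both splice sites during catalysis. When several sites compete, use of one takes reads from the others, so that the deltaPSI of 1 cluster are linked and are not independent measurements.

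Of the 343 short junctions, 202 (58.9%) were used less in *ecd1* and 141 (41.1%) were used more. Among the 1046 changed junctions with longer introns, 490 (46.8%) were used less. The absolute deltaPSI of the short junctions had a median of 0.170 and reached 0.972, against a median of 0.156 for the longer ones. Most changes were small, since 224 short junctions lay below an absolute deltaPSI of 0.2, while 98 lay from 0.2 to 0.5 and 21 at 0.5 or above. The short junctions lay on all the major chromosome arms, with 69 on 2L, 74 on 2R, 69 on 3L, 79 on 3R, 39 on X and 13 on chromosome 4.

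**Figure D1:**
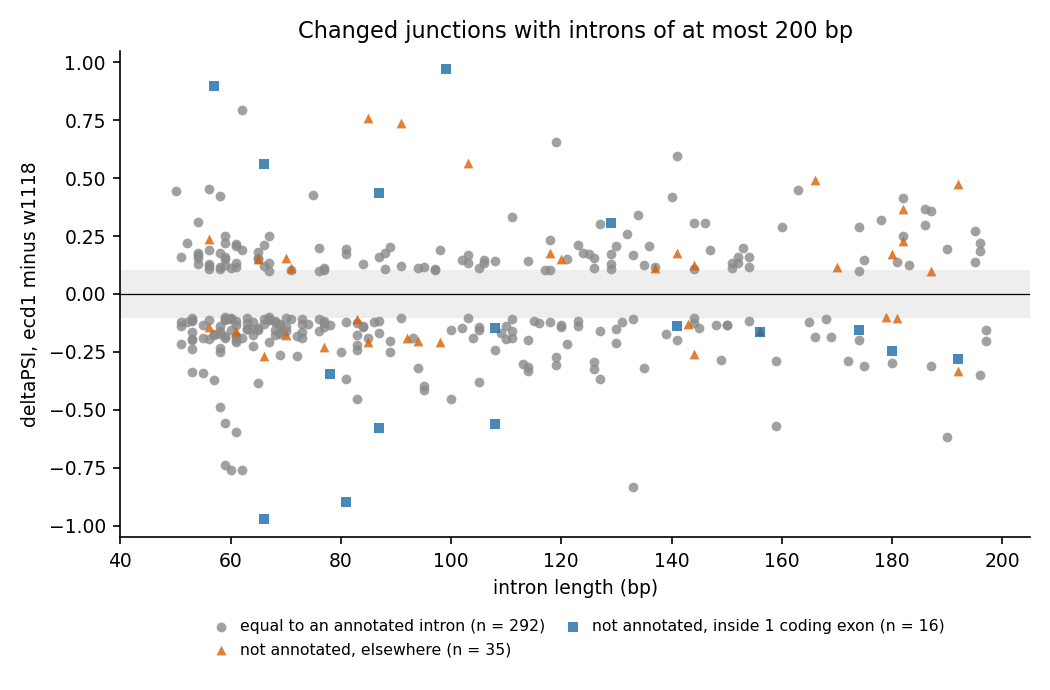
deltaPSI (*ecd1* minus *w1118*, no unit) of each of the 343 short junctions against intron length in bp, with grey circles for 292 annotated introns, orange triangles for 35 junctions not annotated and lying elsewhere, and blue squares for 16 junctions not annotated and lying inside 1 coding exon. The grey band from −0.1 to 0.1 is empty because of the authors' threshold, and several of the points farthest from 0 are squares or triangles.

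The shortest intron measured 50 bp and the longest 197 bp, with a median of 88 bp. The 32395 annotated introns of at most 200 bp in the genes tested for expression had a median of 64 bp. Of these, 238 were below 50 bp, a length at which the list holds no junction. Whether the authors' alignment or junction calling had a lower limit on intron length was not given in the sources used here. Introns of 50 to 59 bp and of 60 to 69 bp made up 16.9% and 17.5% of the changed junctions, against 29.0% and 36.7% of the annotated introns. Introns of 100 to 149 bp made up 27.4% of the changed junctions against 9.79%. The changed junctions thus held fewer of the shortest introns and more of those above 100 bp than the annotation. The annotated introns were not limited to those with a competing intron, which a change in usage within a cluster requires. The part of this in the difference was not tested.

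The direction of the deltaPSI also varied with length. Of 60 junctions of 60 to 69 bp, 43 (71.7%) were used less in *ecd1*, and of 58 junctions of 150 to 200 bp, 26 (44.8%) were used less. The median length was 82 bp for junctions used less and 105 bp for junctions used more.

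**Figure D2:**
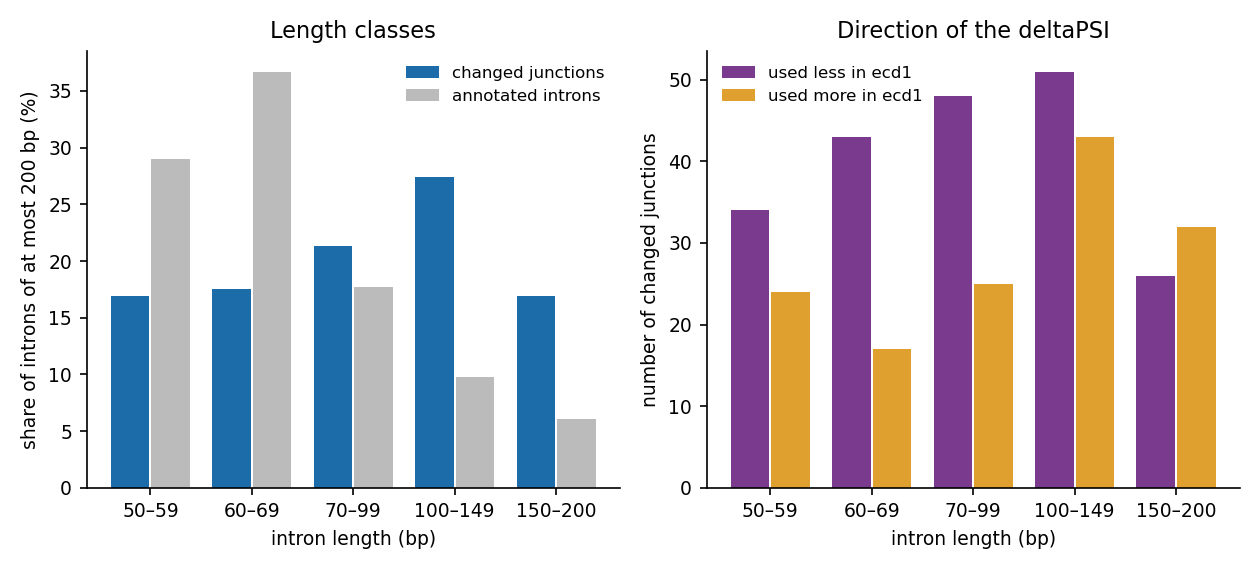
Left, share (%) of changed junctions (blue) and of annotated introns (grey) of at most 200 bp in each class of intron length (bp), where the classes from 100 bp upward held more of the changed junctions. Right, number of changed junctions used less (purple) or more (yellow) in *ecd1* in each class, with 43 against 17 at 60 to 69 bp and 26 against 32 at 150 to 200 bp.

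Both ends of the intron matched an annotated intron on the same strand for 292 short junctions (85.1%), against 90.7% of the longer ones. The annotation was that of Ensembl release 115, which has the coordinates of dm6. Of the 51 other short junctions, 13 had only an annotated 5′ splice site, 16 only an annotated 3′ splice site, 19 neither, and 3 joined annotated sites that no transcript joins. The junctions without annotation had a median absolute deltaPSI of 0.208 and those with it 0.162.

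The position of the introns in transcripts differed from that of annotated short introns. Both flanking exon ends were coding for 224 junctions (65.3%), against 90.0% of the annotated introns of at most 200 bp and 53.2% of the longer changed junctions. A further 80 (23.3%) lay in 5′ untranslated regions, against 6.78% and 41.0%. Among the 292 annotated junctions, 129 (44.2%) were the first intron of some transcript, against 25.7% and 51.1%. The whole intron lay inside an exon of some annotated transcript for 65 junctions (19.0%), against 4.31% of annotated short introns and 4.40% of the longer changed junctions. Among the 292 annotated junctions alone this held for 43 (14.7%). These are counts over introns, which share genes and clusters, so they carry no test. As for length, the annotated introns include those with no competing intron, and the part of this in the differences was not tested.

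The 343 junctions fell into 247 of the 771 groups of changed junctions that share a splice site, called clusters here. Of these clusters, 157 held 1 short junction, 85 held 2, 4 held 3 and 1 held 4. In 127 clusters every listed intron was short, and in 120 a short intron competed with a longer one. By the kind of competition, 146 short junctions had alternative 3′ splice sites, 111 alternative 5′ splice sites and 40 an exon between the competing sites. A pair was counted under alternative splice sites when it shared 1 end and no exon was found between the other ends. Pairs that join different first or last exons were not counted apart and may be among them. Another 40 shared no site with any listed junction, and 27 of those were used less in *ecd1*. The remaining 6 took part in several kinds.

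When 2 short introns competed, the longer one was more often gained in *ecd1*. In the 64 pairs with alternative 3′ splice sites the longer intron gained use and the shorter lost it in 42, the reverse held in 16, and both moved the same way in 6. In the 35 pairs with alternative 5′ splice sites the counts were 21, 12 and 2. The 2 introns of an opposite pair were counted once. Together with 2 pairs around an exon, the longer intron gained in 65 of 93 opposite pairs (69.9%). Where only the shorter intron was annotated, the longer one gained in 13 pairs and the shorter in 3. Where both were annotated, the longer one gained in 51 and the shorter in 22.

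The same direction was seen in most pairs of a short intron and one over 200 bp. The short intron was lost and the longer gained in 30 of 37 pairs with alternative 3′ splice sites, against 4 with the reverse. With an exon between the sites, which the longer intron skips, the counts were 27 and 10 of 39. With alternative 5′ splice sites they were 29 and 22 of 53. The distance between the sites reached 10805 bp in the alternative 3′ and 15859 bp in the alternative 5′ class. Different first or last exons may therefore be among these pairs. With both introns of a short pair at an absolute deltaPSI of at least 0.2, the share in which the longer gained was 57.1% of 28 pairs. Mean insert size was 160.6 to 163.1 bases in *w1118* and 138.2 to 139.2 in *ecd1*, without overlap, and its part in the direction of these changes was not tested.

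**Figure D3:**
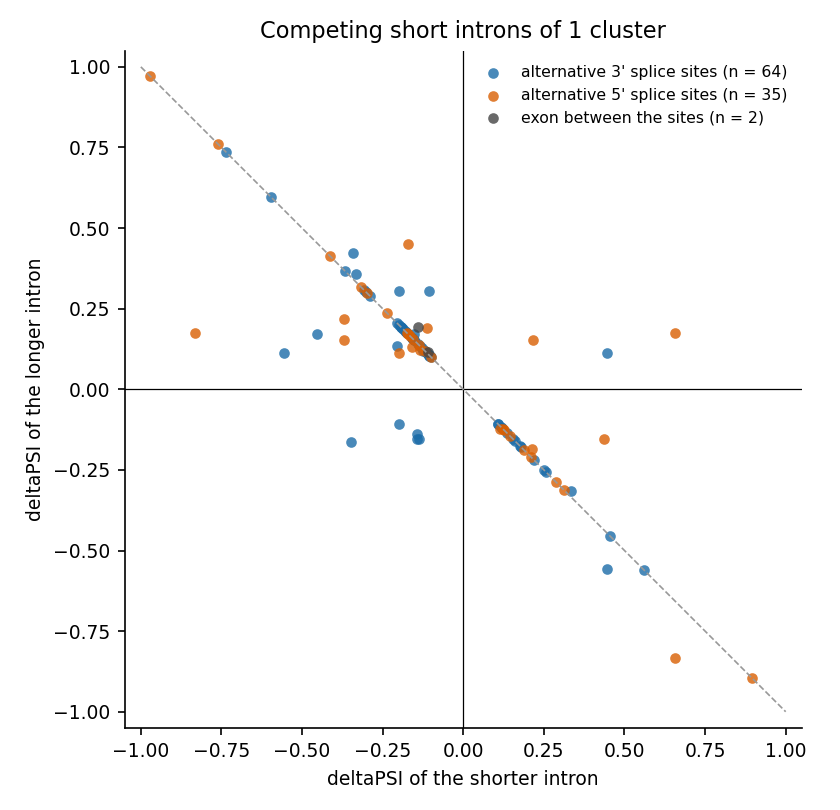
deltaPSI of the longer against that of the shorter intron in 101 pairs of short introns that share a splice site, coloured by alternative 3′ (blue) or 5′ (orange) splice sites or an exon between them (dark grey). The upper left quadrant, where the longer intron gained use in *ecd1*, holds 65 pairs and the lower right 28, and points on the dashed line have opposite deltaPSI of equal size.

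Where the longer intron exceeded 200 bp, the median distance between competing sites was 362 bp for alternative 3′ and 673 bp for alternative 5′ splice sites. In pairs of 2 short introns, described from here on, the length limit of 200 bp bounds the distance. Between 2 alternative 3′ splice sites it ranged from 3 to 92 bp with a median of 24 bp. Between 2 alternative 5′ splice sites it ranged from 3 to 133 bp with a median of 22 bp. A distance that is a multiple of 3 keeps the reading frame where both exons are coding. This was so in 37 of 47 coding pairs with alternative 3′ splice sites (78.7%) and in 10 of 17 coding pairs with alternative 5′ splice sites (58.8%). These counts include 5 and 3 pairs without any annotated intron, from *CG9682*, *CG10953*, *CG32603* and *CG15597*. The junctions of those pairs lie inside 1 coding exon and have lengths that are a multiple of 3, so their distances are too. Whether they are spliced introns was not tested. Among annotated introns of at most 200 bp, the corresponding shares were 87.6% of 798 coding pairs and 77.2% of 285.

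The smallest steps have well known forms. Alternative 3′ splice sites 3 bp apart add or drop 1 codon, and they were found in 4 changed pairs, in *Psi*, *fry*, *CG5850* and *WRNexo*. Such pairs made up 30.2% of the annotated pairs with alternative 3′ splice sites, against those 4 of 64. Alternative 5′ splice sites 4 bp apart were found in 5 pairs of 4 genes, *CG31441*, *DnaJ-60*, *vig2* and *RpS15Aa*. Such pairs made up 12.5% of the annotated pairs with alternative 5′ splice sites, against those 5 of 35. The 63 bp intron labelled *DnaJ-60* is annotated as an intron of *CG42568* instead. In *Psi*, which encodes an RNA-binding regulator of splicing, the 58 bp intron had a deltaPSI of 0.423 and the 55 bp intron −0.343. In *CG5850* the order was the other way, with 0.333 for the 111 bp intron and −0.316 for the 114 bp intron.

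**Figure D4:**
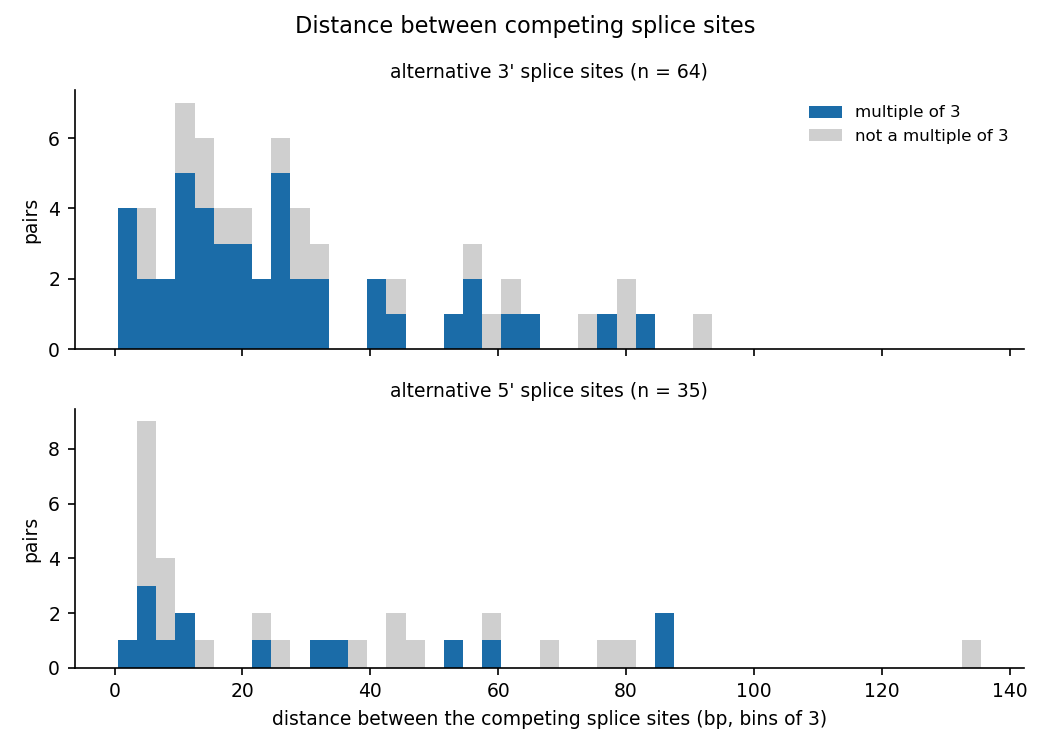
Number of pairs by the distance in bp between their competing splice sites, for 64 pairs with alternative 3′ (top) and 35 pairs with alternative 5′ splice sites (bottom), with distances that are a multiple of 3 in blue and others in grey. Of the top pairs 44 are multiples of 3 and of the bottom pairs 14, where 5 pairs lie at 4 bp.

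The 20 junctions with the lowest and highest deltaPSI came from 13 genes, and 10 of them were not annotated. *Pex3* encodes a peroxisomal membrane protein needed to insert other proteins into that membrane, and its first intron lies in the 5′ untranslated region. The annotated 133 bp intron at chr3L:15144535-15144669 had a deltaPSI of −0.833. It competed for the same 3′ splice site with a 119 bp intron at chr3L:15144549-15144669, which had 0.657, and with an unannotated 141 bp intron at chr3L:15144527-15144669, which had 0.176. The 5′ splice sites therefore lie 14 bp downstream and 8 bp upstream of the one that lost use, and the cluster had an adjusted p of 3.23e-10.

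The normalized count of *Pex3* was 3428, 3263 and 3591 in the *w1118* replicates and 5612, 5236 and 5172 in the *ecd1* replicates. The genotypes did not overlap, and the log2 fold change was 0.64 ± 0.09 (SE) with a limma adjusted p of 0.00479. *Pex6* encodes an ATPase that recycles the peroxisomal import receptor. It had short junctions of −0.232 (58 bp) and 0.169 (103 bp) that share no site. Its normalized counts were 1323, 1545 and 1689 in *w1118* and 3280, 3761 and 3217 in *ecd1*, a log2 fold change of 1.17 ± 0.13 (SE, limma adjusted p = 0.00300).

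The gene *dre4*, which encodes the Spt16 subunit of the histone chaperone FACT, had 1 short junction. Its 111 bp intron at chr3L:1872470-1872582 had a deltaPSI of −0.110 and the next intron, of 436 bp, −0.137. The 664 bp intron that skips the coding exon between them had 0.246, with a cluster adjusted p of 2.70e-05. The normalized count of *dre4* was 7504, 6073 and 6151 in *w1118* and 8974, 10782 and 9790 in *ecd1*. The log2 fold change was 0.59 ± 0.12 (SE, limma adjusted p = 0.0118), and it was 0.52 with an adjusted p of 0.0501 without *ecd1* replicate 2.

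In 3 further genes an annotated intron of about 60 bp lost use to a longer one. In *Cyp9c1*, a cytochrome P450, the annotated 60 bp first intron had a deltaPSI of −0.759 and an unannotated 85 bp intron with an upstream 5′ splice site had 0.759. In *CG15553* the annotated 59 bp intron had −0.737 and an unannotated 91 bp intron with a downstream 3′ splice site had 0.737. In *CG3635* both introns were annotated, and the 61 bp intron had −0.597 and the 141 bp intron 0.597. The distances between the sites were 25, 32 and 80 bp, none of them a multiple of 3, although all these exon ends are coding.

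Of these 3 genes, *CG15553* passed the test for expression. *CG15553* had normalized counts of 1714, 2472 and 1885 in *w1118* and 249, 176 and 288 in *ecd1*, a log2 fold change of −3.10 ± 0.23 (SE, limma adjusted p = 0.00147). *CG3635* had 1388, 1250 and 1129 in *w1118* and 1132, 638 and 300 in *ecd1*, with 1 *ecd1* replicate inside the range of the control. Its log2 fold change of −1.06 ± 0.44 (SE) had a limma adjusted p of 0.105. It was 0.0492 in the fit blocked by replicate number and 0.0271 after *ecd1* replicate 1 was left out. *Cyp9c1* is listed at 0 in all libraries, and 98.2% of its exonic bases are also exonic in other genes.

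The 4 other genes listed at 0, *CG45086*, *CG13510*, *DnaJ-60* and *SclA*, had all of their exonic bases inside exons of other genes. Their junctions were nevertheless listed. In *CG13510* the unannotated 166 bp intron had a deltaPSI of 0.492 and the annotated 207 bp intron, just over the length limit, −0.492.

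The junctions labelled *Galphaq* and *CG45086* are uncertain. *Galphaq* encodes the alpha subunit of a G protein that acts in phototransduction. Its annotated 62 bp intron at chr2R:12616724-12616787 had −0.758, and it is an intron of *CG45086* too. The junction labelled *CG45086* had 0.793 with the same adjusted p of 4.68e-08, yet it lies at chr2R:12624086-12624149, outside that gene and equal to an intron of *CG30054*. Both places hold a 62 bp intron between exons of 185 and 155 bp. How reads that fit both places were assigned was not given in the sources used here, so the 2 values are not read as separate changes. In all, 6 annotated short junctions were not introns of the gene they were labelled with and 5 junctions lay outside it.

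The largest deltaPSI of all belonged to *CG9682*, which had 7 short junctions, all unannotated and all inside 1 coding exon. Its 66 bp junction at chr3R:30252644-30252711 had −0.972, and the 99 bp junction at chr3R:30252611-30252711 had 0.972. The 2 starts lie 33 bp apart. In another of its clusters, junctions of 108, 141 and 174 bp had −0.145, −0.139 and −0.154, their ends again spaced by 33 bp, and a junction of 87 bp had 0.437. The last was an 87 bp junction with −0.577, whose partner of 315 bp had 0.577. The normalized count was 113822, 91766 and 107179 in *w1118* and 79248, 70849 and 80449 in *ecd1*, among the highest shown here. The log2 fold change of −0.44 ± 0.13 (SE) had a limma adjusted p of 0.0380, which was above 0.05 with any 1 of 5 libraries left out and reached 0.136 without *ecd1* replicate 2.

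In total 16 unannotated short junctions of 5 genes lay inside 1 coding exon. All 16 had a length that is a multiple of 3, as did the 10 unannotated longer junctions of this kind. Of the 35 other unannotated short junctions, 9 had such a length, and 32.9% of annotated short introns did. Of the 287 annotated short introns that lie inside 1 coding exon of another transcript, 210 (73.2%) did. In *CG15597* the 81 bp junction had −0.896 and the 57 bp junction 0.896. In *CG10953* the 108 bp junction had −0.561 and the 66 bp junction 0.561. *CG32603* had 4 such junctions, from −0.347 (78 bp) to 0.308 (129 bp), and *Mur29B* had 1 of 192 bp with −0.280. No splice site of these 16 is annotated. Such junctions are gaps within aligned reads, and neither the reads nor the genome sequence was analysed here, so whether these are spliced introns was not tested.

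The counts of these genes varied within *w1118*. *CG15597* had normalized counts of 12503, 25220 and 26024 in *w1118* and 46526, 43397 and 37783 in *ecd1*, a log2 fold change of 1.07 ± 0.28 (SE, limma adjusted p = 0.0276). That adjusted p was 0.0783, 0.0886 and 0.0531 without *ecd1* replicate 1, 2 and 3. *CG10953* had 19166, 45820 and 59216 in *w1118* and 59860, 45495 and 41426 in *ecd1*, so the genotypes overlapped. *CG32603* had 13665, 26726 and 26315 against 31655, 37550 and 35115, a log2 fold change of 0.71 ± 0.26 (SE) with a limma adjusted p of 0.0769, or 0.0374 in the blocked fit. In each of these 3 genes *w1118* replicate 1 was the lowest library. Without it the log2 fold changes were 0.73, −0.11 and 0.39, with limma adjusted p-values of 0.00840, 0.681 and 0.0259. The 5 salivary glue genes *Sgs3*, *Sgs4*, *Sgs5*, *Sgs7* and *Sgs8* summed to 607282 normalized counts in that library and to between 128 and 453 in the *ecd1* libraries, the lowest *w1118* sum being 136. The part of this difference in the values above was not tested.

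The other leading junctions were of several kinds. In *Uhg4*, a non-coding host gene of small nucleolar RNAs, the annotated 190 bp intron had −0.616 and the following 250 bp intron −0.259. The 506 bp intron that skips the exon between them had 0.733, and a 207 bp intron 0.142. In *CG42492*, an otopetrin-like gene, the 159 bp intron had −0.570 and the 372 bp intron with the same 3′ splice site 0.570. In *CDase*, which encodes ceramidase, an unannotated 103 bp intron from the first annotated 5′ splice site had 0.564. The annotated introns of 2972 and 2025 bp that share a 3′ splice site had −0.203 and −0.286.

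*CDase* had normalized counts of 4779, 5779 and 5041 in *w1118* and 3076, 3027 and 4076 in *ecd1*, a log2 fold change of −0.62 ± 0.15 (SE, limma adjusted p = 0.0175). *Uhg4* had 492, 751 and 723 against 638, 762 and 548, and *CG42492* had 1638, 1911 and 1856 against 1698, 1589 and 1614. For *Galphaq* the values were 1515, 2143 and 1948 against 1980, 1891 and 1435. In the last 3 genes the genotypes overlapped, with log2 fold changes of 0.00, −0.14 and −0.08 and limma adjusted p-values of 0.998, 0.330 and 0.756.

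**Figure D5:**
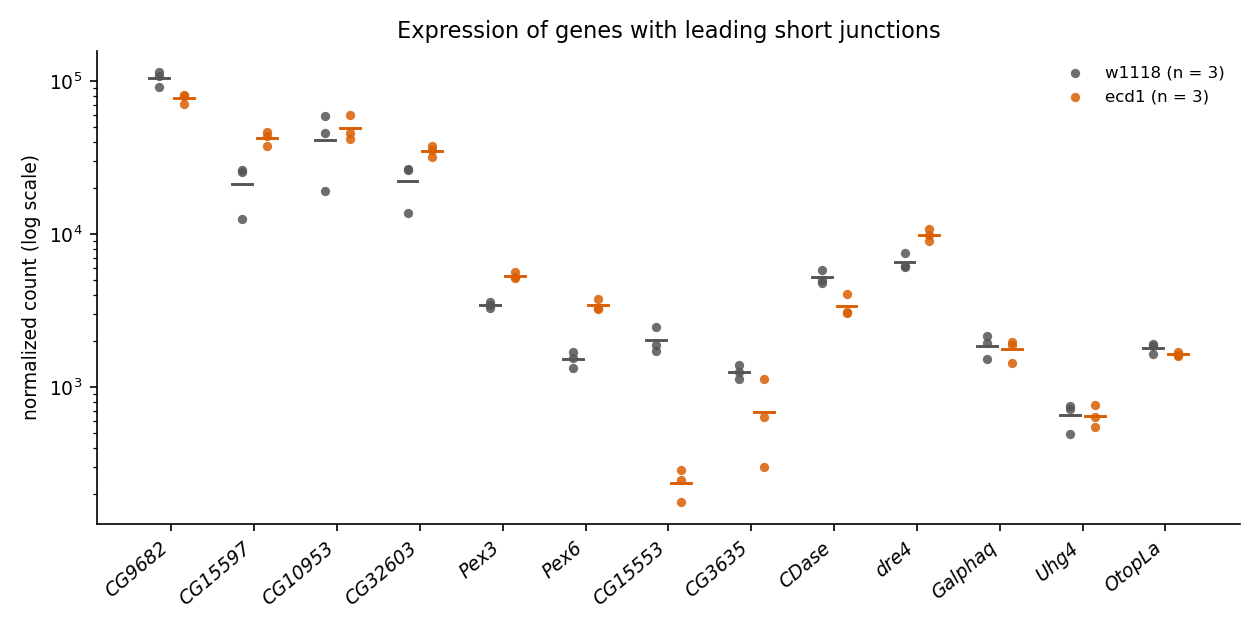
Normalized count on a log scale of 13 genes with leading or listed short junctions, with 1 point per library, *w1118* in grey and *ecd1* in orange (n = 3 each), and a bar at the mean. *Pex3*, *Pex6* and *dre4* lie higher in each *ecd1* library than in any *w1118* library, *CG15553* lower, and *CG10953*, *CG3635*, *Galphaq*, *Uhg4* and *CG42492* (plotted under its newer symbol *OtopLa*) overlap.

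Of all 12930 genes tested for expression, 225 (1.74%) held a short junction. In 12 functional lists the share ranged from 0.613% of detoxification genes to 10.0% of 30 muscle genes and 14.3% of 14 peroxisome genes, the last resting on *Pex3* and *Pex6* alone. These shares rest on 1 to 3 host genes a list and carry no test. *Cyp9c1*, a detoxification host listed at 0, was not among the genes tested and is not in that share. Of 103 genes for splicing and RNA processing that were tested for expression, 3 held 5 short junctions. Besides *Psi* these were *Upf1*, the helicase of nonsense-mediated decay, with −0.159 for its 58 bp and 0.159 for its 87 bp intron in the 5′ untranslated region, and *mbl*, a splicing regulator, with −0.199 (174 bp). Of 156 chromatin and transcription genes 2 held 1 each, *dre4* and *Taf12*, a TFIID subunit, with −0.109 (168 bp).

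In the list for muscle the 3 hosts were *tmod*, which caps actin filaments (0.207, 136 bp), *bt*, a titin-like protein (0.133, 151 bp), and *CG45076* (−0.120, 131 bp). Of 258 ribosome and translation genes 3 held 5 junctions. The cap-binding *eIF4E1* had −0.120 (86 bp), the mitochondrial prolyl-tRNA synthetase *ProRS-m* had −0.118 (53 bp) and 0.118 (61 bp), and *RpS15Aa* had 0.101 (71 bp) and −0.101 (67 bp). In metabolism *SdhA*, a subunit of succinate dehydrogenase, had −0.167 (87 bp) and 0.167 (133 bp), *Eno*, the glycolytic enolase, −0.160 (70 bp) and 0.131 (129 bp), and *ND-15*, of respiratory complex I, −0.124 (116 bp) and 0.118 (137 bp). Over all the lists, 14 genes held 16 pairs of competing short introns. The longer intron gained in 11 of these pairs, the shorter in 4, in *Pex3*, *Appl*, *Patronin* and *obst-J*, and both moved the same way in 1.

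Among signalling genes *foxo*, a transcription factor of the insulin pathway, had −0.307 for the 119 bp and 0.307 for the 146 bp intron, 27 bp apart at the 3′ splice site and so in frame. In the cuticle list *Cpr47Ec* had −0.366 (127 bp) and 0.366 for an unannotated 182 bp intron, and *obst-J*, a chitin-binding protein, 0.176 (58 bp) and −0.176 for an unannotated 70 bp intron. Of detoxification genes *Cyp4d1* had 0.342 (134 bp) besides *Cyp9c1*.

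Neuronal genes held *unc-13*, which primes synaptic vesicles (0.197, 76 bp), *Appl*, the amyloid precursor-like protein (−0.144, 120 bp, and 0.144, 108 bp), and the potassium channel *KCNQ* (−0.119, 64 bp). *Patronin*, which binds microtubule minus ends, had −0.107 (71 bp) and 0.107 (56 bp). The male germline list had 73 genes tested and 1 host, *bol*, an RNA-binding protein of spermatocytes, with 0.365 (186 bp) against −0.455 for a 4534 bp intron. In that list 68 of the 73 genes fell in *ecd1*. Of 12 spermatocyte and spermatid markers 10 fell, with summed normalized counts of 8037 to 12506 in *w1118* and 1888 to 3582 in *ecd1*. The 4 midgut markers summed to between 1125170 and 1401070 in the *ecd1* libraries, below the 2022120 to 2334290 of *w1118*. The sum of the 4 muscle markers was higher, at 2887190 to 3295500 against 1939730 to 2534620. Of these, 1 midgut marker fell and no muscle marker passed the limma test. The midgut marker *Mal-A1* went the other way, with 5002 to 5456 in *w1118* and 5851 to 17676 in *ecd1*. The muscle markers *up* and *wupA* overlapped between the genotypes. Among the other tissues, 2 blood cell markers and 1 nervous system marker rose, and no fat body or salivary gland marker passed. The blood cell marker *He* lay lower in *ecd1* (772 to 801 against 859 to 987) without passing. *Hml*, *elav*, *nSyb* and *Syt1* overlapped. The 4 fat body markers summed to between 342749 and 3587820 in *ecd1* and 3365570 and 5602870 in *w1118*. *Lsp1alpha* (2429 to 610164 against 804431 to 2123560) and *Lsp2* (40 to 9379 against 9869 to 111565) lay lower in each *ecd1* library. *Lsp1beta* and *Fbp1* overlapped. In whole larvae fewer cells of a type and less RNA per cell cannot be told apart, and the part of tissue make-up in any deltaPSI was not tested.

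All 232 host genes were in the count table, and 225 passed the filter of a mean normalized count of at least 10. The limma test at an adjusted p below 0.05 called 49 hosts higher and 32 lower in *ecd1*, and 144 did not pass. Among all 12930 genes tested 35.1% passed, 16.0% higher and 19.1% lower in *ecd1*, so the 36.0% of host genes lay near the background, and expression is the same contrast that chose the junctions. The counts were 26 and 11 without *ecd1* replicate 2, and 20 and 17 host genes fell without *w1118* replicate 2 and 3. The median log2 fold change of the hosts was 0.08 against 0.01 for all genes. A change of at least 2-fold was fitted for 22 hosts (9.78%) against 23.9% of all genes. Of the 417 hosts of changed junctions over 200 bp only, 4.32% reached 2-fold and 25.7% passed the limma test. The median of the mean normalized count was 4287 for hosts of short junctions, 5158 for those 417 and 1054 for all genes. In 125 hosts (55.6%) the 3 *ecd1* libraries did not overlap the 3 *w1118* libraries, against 53.5% of all genes.

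The longest members were the 197 bp introns of *AIF*, the apoptosis-inducing factor (−0.203), and *CG10737* (−0.155). The nearest outside were introns of 201 bp in *CG31388* (−0.123) and 205 bp in *Trc8* (0.104). The members nearest to a deltaPSI of 0.1 were *IscU*, the scaffold of iron-sulfur cluster assembly (−0.1002), and *CG4390* (0.1007), and junctions below that limit were not listed.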

How the data were processed

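Total RNA of whole larvae (3 *w1118* and 3 *ecd1* samples) was sequenced as read pairs of 100 bases. The authors aligned them with TopHat2 2.0.10 to dm6 and counted genes with featureCounts 1.6.4. The normalized counts that the authors deposited are a signal per gene and sample, a count divided by a size factor. For junctions the authors deposited a deltaPSI, a score from −1 to 1 by LeafCutter, and an adjusted p-value for each cluster. The deposited sequencing report gives insert sizes and the fraction of reads on 1 strand, near 0.50 in each sample. Deposited log2 fold changes with their statistics and the tables of GO terms hold the authors' own comparisons and were not used.

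Junctions were compared with the Ensembl release 115 annotation. Genome sequence was not used, so the planned sequence features (base composition, splice site scores, motifs) were not computed. The junctions named were the 10 lowest and 10 highest deltaPSI with their partners, those of *dre4* and *Pex3*, up to 4 per gene list, those nearest to the thresholds and those of genes with 4 or more; the 3 bp and 4 bp pairs, and which of these genes had expression given, were chosen after their values were seen. The junctions and gene lists were chosen with earlier results of these data known.

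Expression was tested with limma 3.58.1 with a trend on log2(normalized count + 1) in R 4.3.3, for genes with a mean of at least 10, with Benjamini-Hochberg adjustment over 12930 genes; fold changes are on this scale. The deposited steps gave whole reads for 100% of values above 0 within 0.05 of a read, 74581798 to 118102006 per sample. On these reads edgeR 4.0.16 called 4641 genes and DESeq2 1.42.0 called 5483, against 4538 by limma. After the mean of each genotype was removed, samples with the same replicate number had correlations of 0.21, 0.23 and 0.22, other pairs −0.27 to 0.05. The labels give replicate numbers and name no pairing. The main fit therefore used genotype only, and the replicate block was an alternative. The limma step was tested on simulated data.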

Additional observations from a re-analysis of the deposited data

How the results depend on the processing

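Of the 343 short junctions, 119 remained at an absolute deltaPSI of at least 0.2, 146 at an adjusted p below 0.001 and 193 at a length of at most 100 bp. The share used less in *ecd1* was 65.8% at a length of at most 100 bp and 66.0% with 1 junction per cluster. Many clusters with more than 1 short junction held a pair with opposite deltaPSI of equal size. In such a cluster the sign depends on which junction is kept. The 66.0% therefore cannot check the direction of the changes. The share of annotated introns was 77.3% at an absolute deltaPSI of at least 0.2. The share of lengths that are a multiple of 3 was 28.5% at a length of at most 100 bp, against 36.7%. The median length was 100.0 bp at an absolute deltaPSI of at least 0.2, 66.0 bp at a length of at most 100 bp and 108.0 bp at a length of at most 300 bp. Alternatives for pairs, and those without junctions inside 1 coding block, were chosen after seeing the data. Among pairs of short introns, the longer gained in 57.1% with both junctions at an absolute deltaPSI of at least 0.2. It gained in 68.5% with 1 pair per cluster and in 72.7% without pairs inside 1 coding block. The causes were not tested.

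Without each replicate in turn, 26 to 55 host genes rose and 11 to 35 fell, and the median log2 fold change of host genes was 0.080 to 0.11. It was 0.11 with edgeR on recovered reads. With the replicate block 51 host genes rose and 31 fell, and among the 13 genes whose fold change was recomputed the block changed the calls of *CG3635* and *CG32603*. Fold changes near 0 changed sign without passing the test. For *Galphaq* the log2 fold change was −0.22 to 0.065 without each replicate in turn, above 0 without *w1118* replicate 2 (0.03) and *ecd1* replicate 3. For *Uhg4* it was 0.022 with edgeR and −0.20 to 0.11 without each replicate, above 0 without *w1118* replicates 2 and 3 (0.11 and 0.08) and *ecd1* replicates 1 and 3 (0.01 and 0.11). For *CG10953* it was −0.11 to 0.71 without each replicate, below 0 without *w1118* replicate 1. The call of *CDase* was lost without *w1118* replicate 2 and without *ecd1* replicates 1 and 2 (limma adjusted p of 0.0566, 0.0542 and 0.0697). The alternatives for base composition were not run because genome sequence was not used. No setting could recompute deltaPSI, since no junction values per sample were used here, so the effect of any 1 library on the junction results was not measured.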
